A study of Homo sapiens with 6 samples.

Results

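The stretches described here are the pieces of the genome that lay inside a called island of H3K4me3 and a called island of H3K27me3 in both conditions of the study, so that all 4 deposited island lists held them. They were found as the base-pair intersection of the 4 lists on chromosomes 1 to 22, with a minimum length of 400 bp and an overlap with a protein-coding gene span extended by 1 kb on either side. This gave 2954 stretches of 4203 intersections of any length, on 2637 host genes of 19126 protein-coding genes (13.8%). The stretches were thus selected on the island calls of all 4 lists, so their number and the presence of both marks in them are descriptions and not results.

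The cells were endothelial cells made from H1, an established human embryonic stem cell line, and the 2 histone marks were mapped in them by ChIP-seq, in which chromatin is pulled down with an antibody and the DNA sequenced. All sample labels give the cells as GATA2+ and the genotype as H1, and the conditions are Vc- and Vc+, where the series title gives Vc as vitamin C and the labels give no dose or day. The series holds 6 samples, and each mark and condition had 1 library with an island list, so the differences below are between libraries, with no replicate check and no test. Inputs, 2 of the samples, stayed unused. Condition names in the 4 file names are swapped against the sample labels, and the design text also mentions GATA2/eGFP- cells. Vc- and Vc+ below follow the labels, and every direction between them reverses if the file names hold. On chromosomes 1 to 22 there were 21583 (Vc-) and 21311 (Vc+) H3K4me3 islands, and 8893 and 9534 H3K27me3 islands. Read depth is unknown from these lists. Of 12 endothelial markers, 11 carried H3K4me3 at an end of the gene in both libraries, against 1 of 7 blood markers (CD34, which endothelium also expresses) and 1 of 4 markers of pluripotent cells (ZFP42). The exception was VWF, von Willebrand factor, which had H3K4me3 in the Vc+ library alone. At VWF, CDH5, CD34 and CD33, H3K27me3 was called at an end of the gene in the Vc+ library alone. ESAM and CLDN5 carried both marks in both conditions. The blood marker ITGA2B had neither mark at its ends but hosted a stretch. H3K4me3 was also found at 3 of 4 markers of smooth muscle or mesenchyme (ACTA2, TAGLN and COL1A1), and the part of other cells in the results below was not tested. H3K4me3 is common over all genes. Of 21156 start sites of protein-coding genes, 11931 had H3K4me3 in both libraries and no H3K27me3 within 1 kb. That share is taken at start sites and the marker counts at gene ends, so they are not alike in measure.

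H3K4me3 is the mark of promoters that are active or poised, and H3K27me3 is laid down by the Polycomb repressive complex PRC2 and goes with silencing. Places that carry both marks are called bivalent. In embryonic stem cells they are known at CpG islands of developmental regulators, which are held silent and can later be activated or shut. Separate pull-downs from cell populations do not show whether both marks sit on the same nucleosome, on the same allele or in the same cell, and these cannot be told apart here.

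Sequences are shown for host genes whose promoter window lay wholly inside a stretch, because base composition was not used to choose the stretches. GATA2, a zinc finger factor of blood and endothelial development, is the gene the labels use to name the cells, so its state here is tied to how the cells were chosen. GFI1 encodes a transcriptional repressor of the step from endothelium to blood, and CXCR4 the receptor of the chemokine CXCL12. FOXC1 encodes a forkhead factor of mesoderm and vessels, GBX2 a homeobox factor of the hindbrain, and CDKN2A the cell cycle inhibitors p16 and ARF. Each is the longest-stretch host of its gene list with a window that qualified, apart from GATA2, which was asked for by name. The 250 bases before the most upstream start are given 5′ to 3′ on the strand of the gene, from RefSeq on GRCh38.p14, with each CpG in capitals. The windows were chr3:128493202-128493451 (minus strand) for GATA2, chr1:92486926-92487175 (minus) for GFI1, chr2:136118150-136118399 (minus) for CXCR4, chr6:1609665-1609914 (plus) for FOXC1, chr2:236168387-236168636 (minus) for GBX2 and chr9:21995325-21995574 (minus) for CDKN2A.
GATA2: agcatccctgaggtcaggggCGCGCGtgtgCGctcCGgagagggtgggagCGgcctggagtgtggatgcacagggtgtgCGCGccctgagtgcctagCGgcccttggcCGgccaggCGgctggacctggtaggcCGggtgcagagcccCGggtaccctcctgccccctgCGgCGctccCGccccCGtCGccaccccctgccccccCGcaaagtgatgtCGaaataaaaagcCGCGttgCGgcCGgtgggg
GFI1: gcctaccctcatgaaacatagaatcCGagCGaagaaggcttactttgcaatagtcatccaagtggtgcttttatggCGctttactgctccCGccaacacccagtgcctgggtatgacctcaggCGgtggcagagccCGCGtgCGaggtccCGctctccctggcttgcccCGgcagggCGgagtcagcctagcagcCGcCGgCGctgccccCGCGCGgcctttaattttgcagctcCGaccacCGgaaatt
CXCR4: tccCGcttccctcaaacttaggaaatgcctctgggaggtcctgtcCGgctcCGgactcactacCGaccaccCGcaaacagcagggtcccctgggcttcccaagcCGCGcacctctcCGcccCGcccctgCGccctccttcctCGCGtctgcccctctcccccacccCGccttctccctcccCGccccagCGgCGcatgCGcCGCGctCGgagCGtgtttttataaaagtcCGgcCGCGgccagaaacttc
FOXC1: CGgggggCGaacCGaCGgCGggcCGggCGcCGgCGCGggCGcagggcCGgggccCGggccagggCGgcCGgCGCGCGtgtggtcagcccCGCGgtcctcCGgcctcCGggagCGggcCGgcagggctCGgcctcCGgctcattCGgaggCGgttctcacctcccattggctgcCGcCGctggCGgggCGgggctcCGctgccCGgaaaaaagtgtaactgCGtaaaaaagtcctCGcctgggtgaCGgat
GBX2: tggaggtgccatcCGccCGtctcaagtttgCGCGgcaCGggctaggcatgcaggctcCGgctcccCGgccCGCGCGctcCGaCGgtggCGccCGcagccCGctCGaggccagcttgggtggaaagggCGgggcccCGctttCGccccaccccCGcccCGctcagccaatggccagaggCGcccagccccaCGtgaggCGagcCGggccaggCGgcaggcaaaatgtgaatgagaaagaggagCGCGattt
CDKN2A: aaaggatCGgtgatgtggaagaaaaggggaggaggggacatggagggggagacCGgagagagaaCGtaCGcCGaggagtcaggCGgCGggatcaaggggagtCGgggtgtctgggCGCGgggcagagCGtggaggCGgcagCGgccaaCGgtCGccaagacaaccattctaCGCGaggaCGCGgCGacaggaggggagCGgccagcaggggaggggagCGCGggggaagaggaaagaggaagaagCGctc
CpGs are dense in all 6 and densest in FOXC1, which held 37 CpGs in 250 bases with a GC content of 76.8%. GFI1 had the fewest, 19 CpGs with 61.2% GC. GATA2, CXCR4 and CDKN2A held 24 each, and GBX2 held 28.

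The promoter windows of the stretches were rich in CpG as a whole. Start sites were known for 15101 of the genes (79.0%), so the composition of the host genes as a set could not be given, and the values describe the windows held in the table. A window ran from 250 bases before to 50 bases after a start. In the 1145 windows that lay wholly inside a stretch the median GC content was 71.7% and the median number of CpGs 32. In the 11931 windows with H3K4me3 in both libraries and no H3K27me3 within 1 kb of the start, these were 65.7% and 27. In the 5651 windows with neither mark they were 48.7% and 4. The observed-to-expected CpG ratio hardly differed between the windows with both marks (median 0.848) and those with H3K4me3 alone (0.843), and was 0.225 where neither mark was called. A GC content of at least 55% with a ratio of at least 0.65 was met by 84.5% of the windows inside a stretch, 75.5% of those with H3K4me3 alone and 54.5% of all 21156 windows. The first set had to lie wholly inside a stretch, while windows with H3K4me3 alone did not have to lie inside an island. By the looser rule, 77.7% of the 1621 windows that overlapped a stretch met both limits, close to the 75.5%. Their medians were 70.0% GC, 29 CpGs and a ratio of 0.815. The motif shares below use the stricter set.

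Short motifs of promoter-binding factors were counted on both strands in the same windows, with a motif set chosen after the files had been seen. A match is a run of letters and not a bound site. The GC box GGGCGG, bound by SP1, was in 80.7% of the windows inside a stretch, 72.2% of those with H3K4me3 alone and 56.6% of all windows. The ETS letters CCGGAAG went the other way, with 4.28% of the windows inside a stretch (49 of 1145) against 19.9% with H3K4me3 alone and 12.9% of all. Among windows with at least 20 CpGs the shares inside a stretch and with H3K4me3 alone were 4.57% and 22.1%. The part of base composition in this difference was not tested. The letters of YY1, AAGATGGCG, were in 0.262% of the windows inside a stretch, 4.01% of those with H3K4me3 alone and 2.42% of all. The CCAAT box of NFY gave 24.2%, 35.4% and 34.4%, the CREB letters TGACGTCA 1.75%, 3.22% and 2.31%, and the E-box CACGTG 7.25%, 9.99% and 8.25%. The TATA box letters TATAAA were in 5.24%, 4.89% and 9.51%. The letters AGATAA of GATA factors were in 2.53%, 4.46% and 7.89%, and TGTGGTT of RUNX factors in 1.14%, 2.73% and 3.67%. The GC box had the highest share of this motif set in the windows of the stretches, as it also had with H3K4me3 alone and in all windows. Among windows with at least 20 CpGs its shares inside a stretch and with H3K4me3 alone were closer, 86.1% and 82.7%. The ETS and YY1 letters were less frequent in the windows of the stretches than in windows with H3K4me3 alone. In the 5651 windows with neither mark their shares were 2.57% and 0.159%, so low shares were not particular to the stretches.

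Of 1461 annotated miRNA hairpins on GRCh38.p14, 16 lay inside a stretch, beside 1499 of 21156 start sites of protein-coding genes. The hairpins are thus listed as a description and not as a result about miRNAs. A few mature miRNAs are shown for their ties to the host genes and to tissues named below, with the seed (bases 2 to 8) in capitals, 5′ to 3′, from RefSeq.
hsa-miR-10a-5p: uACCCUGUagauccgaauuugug
hsa-miR-137-3p: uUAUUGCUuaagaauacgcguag
hsa-miR-129-5p: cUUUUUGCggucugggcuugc
hsa-miR-219a-5p: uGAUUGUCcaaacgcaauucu
hsa-miR-34b-5p: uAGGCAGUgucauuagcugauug
hsa-miR-2682-5p: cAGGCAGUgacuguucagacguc
MIR10A sits in the HOXB cluster, in a stretch of 0.8 kb whose host gene was HOXB3. MIR137 and MIR2682 shared a stretch of 1.0 kb on chromosome 1, MIR129-2 lay in a stretch of 1.0 kb on chromosome 11, and MIR219A2 in a stretch of 1.4 kb on chromosome 9. miR-137, miR-129 and miR-219a are known from the nervous system. They were picked from the 16 for such ties and do not describe the set, and others such as MIR4783, MIR1258 and MIR3665 are not shown. MIR34B lay in a stretch of 0.8 kb, and the hairpin is a known target of p53. The seed of miR-34b-5p, AGGCAGU, is shared with miR-2682-5p. The stretch of NR2F2 held MIR1469, and that of HOXD1 held MIR7704.

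Most stretches were short. Their lengths ran from 0.4 kb to 40.2 kb with a median of 1.2 kb, and the middle of the distribution lay between 0.8 and 1.6 kb. Only 484 stretches (16.4%) reached 2 kb, 93 reached 3 kb and 10 reached 5 kb, and together all stretches covered 3.9 Mb. At the threshold, 204 stretches were 400 bp long, the shortest admitted, and 123 further intersections on genes were 200 bp long and fell outside. The 3 stretches at 400 bp with the highest H3K27me3 score in the Vc- library were both short stretches of DMRTA2, a developmental factor with a DM domain, and a stretch of TBX15, a T-box factor. The stretches of 400 bp lay in H3K27me3 islands with a median of 3.0 kb in the Vc- library and 4.8 kb in the Vc+ library. Intersections of 200 bp lay in islands of 3.0 and 5.0 kb.

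**Figure D1:**
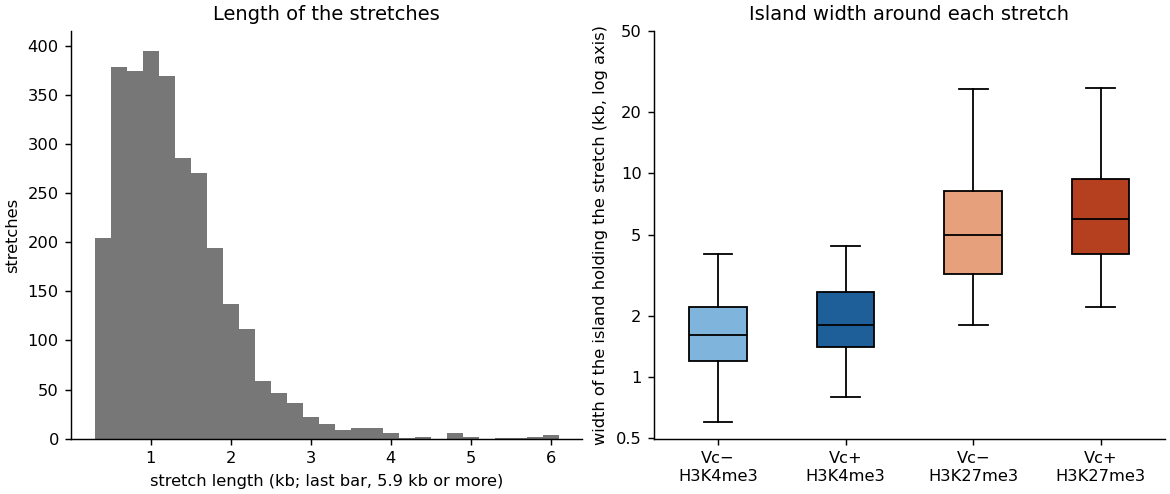
Left, number of stretches by length in kb in steps of 0.2 kb, with the 4 stretches of 5.9 kb or more in the last bar. Right, width in kb (log axis) of the island that holds each of 2954 stretches in each library, where the box gives quartiles and median and the whiskers the 5th and 95th percentiles; H3K27me3 islands (medians 5.0 and 6.0 kb) sit above H3K4me3 islands (1.6 and 1.8 kb).

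The 10 longest stretches included 5 at genes of transcription factors (FOXC1, GFI1, TFAP2A, FOXC2 and FOXP2). The longest, 40.2 kb on chromosome 1 (228608401 to 228648600), was assigned to RHOU, which encodes a small GTPase, but it also spans 17 annotated 5S ribosomal RNA genes. The copies of this array are nearly identical, and how reads from them were placed is not given in the sources used here, so this length is uncertain. The next was 9.0 kb at FOXC1, inside H3K27me3 islands of 31.2 kb in the Vc- library and 30.6 kb in the Vc+ library. GFI1 and TFAP2A, an AP-2 factor of neural crest and skin, had stretches of 6.8 kb each. TCHH, which encodes trichohyalin of the hair follicle, and SLC32A1, the transporter of GABA and glycine into synaptic vesicles, had 5.8 kb each. NPR3, the clearance receptor of natriuretic peptides, had 5.6 kb, and LOC100129098 had 5.4 kb within the same H3K27me3 island as SOX17. FOXC2, a forkhead factor of lymphatic vessels and mesoderm, and FOXP2, a forkhead factor known from speech development, had 5.0 kb each.

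Some genes held a row of stretches rather than a long one. A single stretch was found at 2213 host genes, 2 stretches at 312 and 3 or more at 112. PAX2, a paired box factor of kidney and ear, held 6 stretches of 0.8 to 3.4 kb. Of these, 5 lay in 1 H3K27me3 island of 30 kb in the Vc- library and of 30.8 kb in the Vc+ library, and in the Vc- library each had an H3K4me3 island of its own. DMRTA2, GATA4 (a zinc finger factor of heart and endoderm), NFIC (a nuclear factor I protein) and NRN1 (neuritin, a secreted neuronal protein) held 5 each. All 5 stretches of DMRTA2 lay in H3K27me3 islands of 27 and 23.6 kb, and all 5 of GATA4 in islands of 23.6 and 23.4 kb. Over all genes, 259 H3K27me3 islands of the Vc- library and 294 of the Vc+ library held 2 or more stretches.

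Host genes were counted in 33 gene lists, beside the 13.8% of all protein-coding genes. Regulators of development stood above that share. Of 39 genes of neural ectoderm, 36 were hosts (92.3%), among them PAX6, SOX1, OLIG2 and EN1. PAX genes gave 8 of 9, and a list of homeobox, POU and ZIC factors gave 92 of 108 (85.2%). WNT ligands gave 15 of 19 (78.9%), bHLH factors of the proneural class and their relatives 24 of 31 (77.4%), mesoderm and cardiac genes 29 of 42 (69.0%), T-box genes 10 of 15 (66.7%) and endoderm genes 14 of 22 (63.6%). Forkhead genes gave 26 of 42 (61.9%), with FOXA1, FOXA2, FOXC1, FOXC2 and FOXF1 among them. These lists overlap, and genes such as PAX6 count in more than 1. A host needs a stretch anywhere in its extended span, so long genes offer more room, and the shares do not account for gene length. Of 1968 host genes with a known start, 1260 (64.0%) had a start inside a stretch.

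Genes of signalling and excitable membranes came next. Of 81 potassium channel genes 49 were hosts (60.5%), with the longest stretches at KCNN1 and at the neighbours KCNK16 and KCNK17, which share a stretch of 3.6 kb, and of 59 genes of glutamate, GABA and nicotinic receptors 25 were (42.4%), with stretches at GRIN2A and GRIN3A, which encode NMDA receptor subunits. Frizzled receptors gave 6 of 10, FGF ligands 11 of 20, BMP and TGF-beta ligands with their antagonists 12 of 28, semaphorins, netrins and SLITs with their receptors 19 of 47, and ephrins with Eph receptors 6 of 21. Collagen genes gave 16 of 42, and CDK inhibitors 3 of 7, which were CDKN1B, CDKN2A and CDKN2C. Among 17 autosomal genes of Polycomb complexes and H3K27 demethylases, 5 were themselves hosts. They included BMI1, CBX7, CBX8 and PHC2, which encode subunits of PRC1.

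At the other end were lists that lie near or below the background. Solute carriers gave 72 of 369 (19.5%), and endothelial genes 4 of 20. ZNF genes gave 33 of 497 (6.64%), keratins 3 of 55 and olfactory receptors 4 of 391 (1.02%). No stretch was found at 79 genes of cytosolic ribosomal proteins, 53 clustered protocadherins and 14 housekeeping genes. By chromosome, the share of genes that were hosts ran from 8.06% on chromosome 19, which carries many ZNF genes, to 19.5% on chromosome 4.

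**Figure D2:**
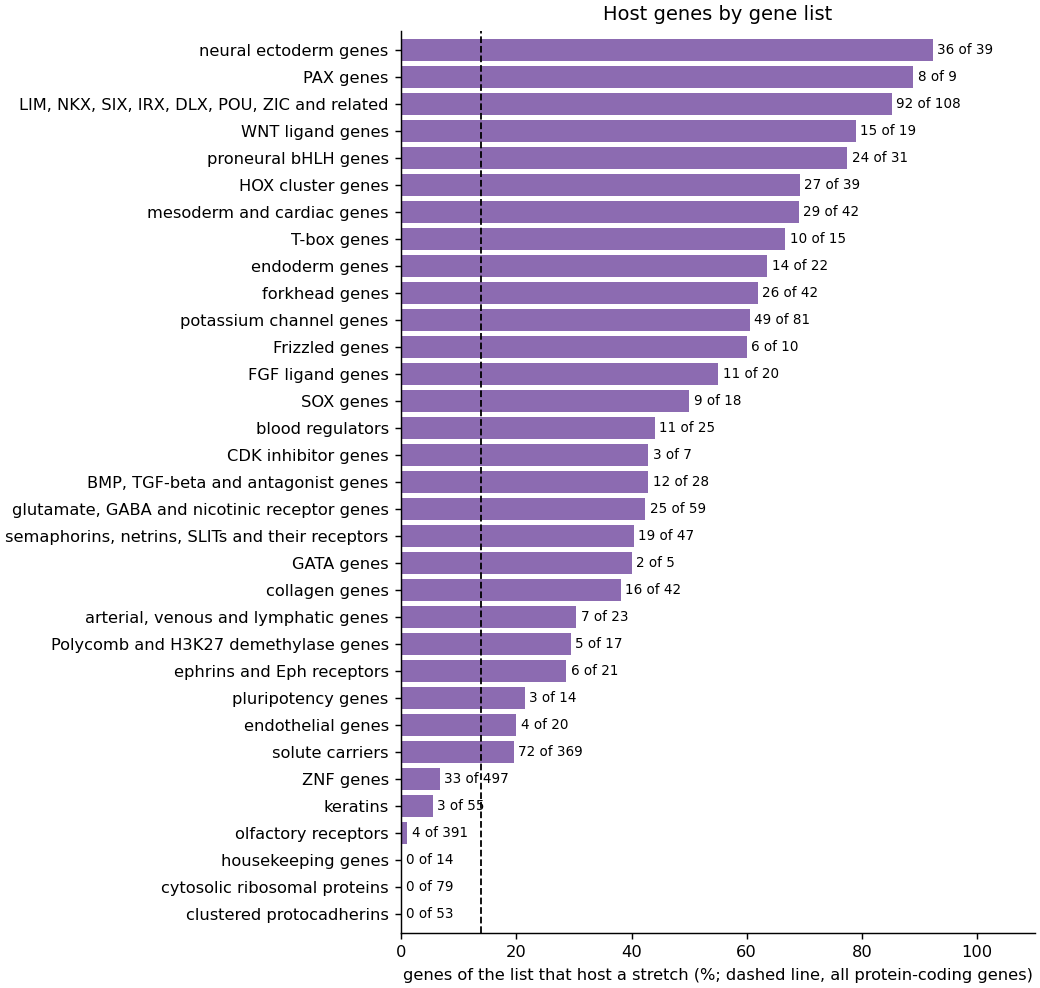
Percentage of the genes in each of 33 lists that host a stretch, with the count beside each bar and a dashed line at 13.8% for all protein-coding genes. Lists of developmental regulators fill the top, from 92.3% for neural ectoderm genes, and ribosomal proteins, clustered protocadherins and housekeeping genes have no bar.

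Genes of blood and vessels are of interest because the title concerns the step from endothelium to blood. Of 25 blood regulators 11 were hosts (44.0%), of 20 endothelial genes 4 (20%) and of 23 arterial, venous and lymphatic genes 7 (30.4%). They held 28 stretches in all. The blood regulators differed among themselves in which mark was the wider. At GFI1 the H3K4me3 islands were 7.2 and 6.8 kb in the Vc- and Vc+ libraries, inside H3K27me3 islands of 13.0 and 16.6 kb. RUNX3, a runt factor of T cells and neurons, had a stretch of 3.6 kb with H3K4me3 islands of 3.8 and 3.6 kb and H3K27me3 islands of 9.0 and 8.8 kb. At HLF, a bZIP factor of blood stem cells, H3K4me3 islands of 1.8 and 2.0 kb lay in H3K27me3 islands of 10.2 and 11.0 kb. ERG, an ETS factor of endothelium and blood stem cells, had H3K4me3 islands of 2.0 and 1.8 kb and H3K27me3 islands of 8.4 and 8.6 kb. In these 4 genes H3K27me3 was the wider mark in both conditions.

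The opposite picture was seen at 4 other blood regulators, where H3K4me3 was the wider mark in both conditions at 1 stretch or more, though by little in the Vc+ libraries at MEIS1 and MECOM. At GATA2 the H3K4me3 islands were 11.8 and 12 kb, and the H3K27me3 islands over the start were 2.4 kb in the Vc- library and 4.2 kb in the Vc+ library. MEIS1, a homeobox partner of HOX proteins in blood stem cells, had H3K4me3 islands of 15.0 and 9.0 kb and H3K27me3 islands of 2.4 and 8.4 kb. RUNX1, the runt factor required for blood to arise from endothelium, held 2 stretches of 2.6 and 2.4 kb in a shared H3K4me3 island of 10.2 kb in the Vc- library and 10.6 kb in the Vc+ library. The H3K27me3 island was 4.0 kb in both libraries at the first of them, and 5.0 and 8.0 kb at the other, 702 bp from the nearest start site. MECOM, a zinc finger factor of blood stem cells, also held 2 stretches. At the longer its H3K4me3 islands were 8.2 and 4.6 kb and its H3K27me3 islands 3.6 and 4.4 kb. CBFA2T3, a corepressor, had islands of similar size, 2.2 and 3.0 kb of H3K4me3 and 3.2 and 3.6 kb of H3K27me3. CEBPA, a myeloid bZIP factor, had H3K4me3 islands of 3.0 kb in both libraries and H3K27me3 islands of 2.2 and 4.8 kb. HOXA9 lay in the HOXA domain described below.

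The endothelial hosts were ERG, SOX17, CLDN5 and ESAM. SOX17, an arterial SOX factor that also acts in endoderm, had a stretch of 4.8 kb in H3K27me3 islands of 24.0 and 19.8 kb. At CLDN5, which encodes claudin 5 of endothelial tight junctions, the H3K27me3 islands were 1.8 kb in both libraries and narrower than the H3K4me3 islands of 3.4 and 3.6 kb. ESAM, an endothelial cell adhesion molecule, had a stretch of 0.6 kb, and its H3K27me3 island was 4.8 kb in the Vc- library and 25 kb in the Vc+ library. The covered length of the 10 kb window centred on the stretch, 5 kb to either side, was 8.4 kb in the Vc- library, and in the Vc+ library the window was covered in full.

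Among arterial, venous and lymphatic genes, NR2F2, a nuclear receptor of venous identity, held 3 stretches of 0.6, 4.2 and 1.8 kb. They lay in H3K27me3 islands of 29.8 and 31.4 kb in the Vc- library and in 1 island of 65.2 kb in the Vc+ library. PROX1, a homeobox factor of lymphatic identity, held 3 stretches in H3K27me3 islands of 5.8 and 9.4 kb, and TBX1, a T-box factor of the pharyngeal arches, held 2 in islands of 4.0 and 4.8 kb against 17 kb. At DLL4, the arterial Notch ligand, the H3K4me3 island was 17.8 kb in the Vc- library and 8.8 kb in the Vc+ library, and the H3K27me3 islands were 4.8 and 8.8 kb. At CXCR4 the H3K4me3 islands were 4.2 kb in both, and the H3K27me3 islands 9.0 and 6.0 kb. DLL1, another Notch ligand, had H3K27me3 islands of 10.6 and 12.8 kb, and FLT4, the receptor of VEGF-C, 4.2 and 4.4 kb. Of the 12 stretches of this list, 9 had an H3K27me3 island at least 1.5-fold wider in the Vc+ library and 1 an island at least 1.5-fold narrower, and stretches that share an island move together. The same counts were 5 and 0 of 13 stretches of blood regulators, beside 733 (24.8%) and 174 (5.89%) of all 2954 stretches, and 36.7% and 11.1% of all overlapping pairs of H3K27me3 islands.

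**Figure D3:**
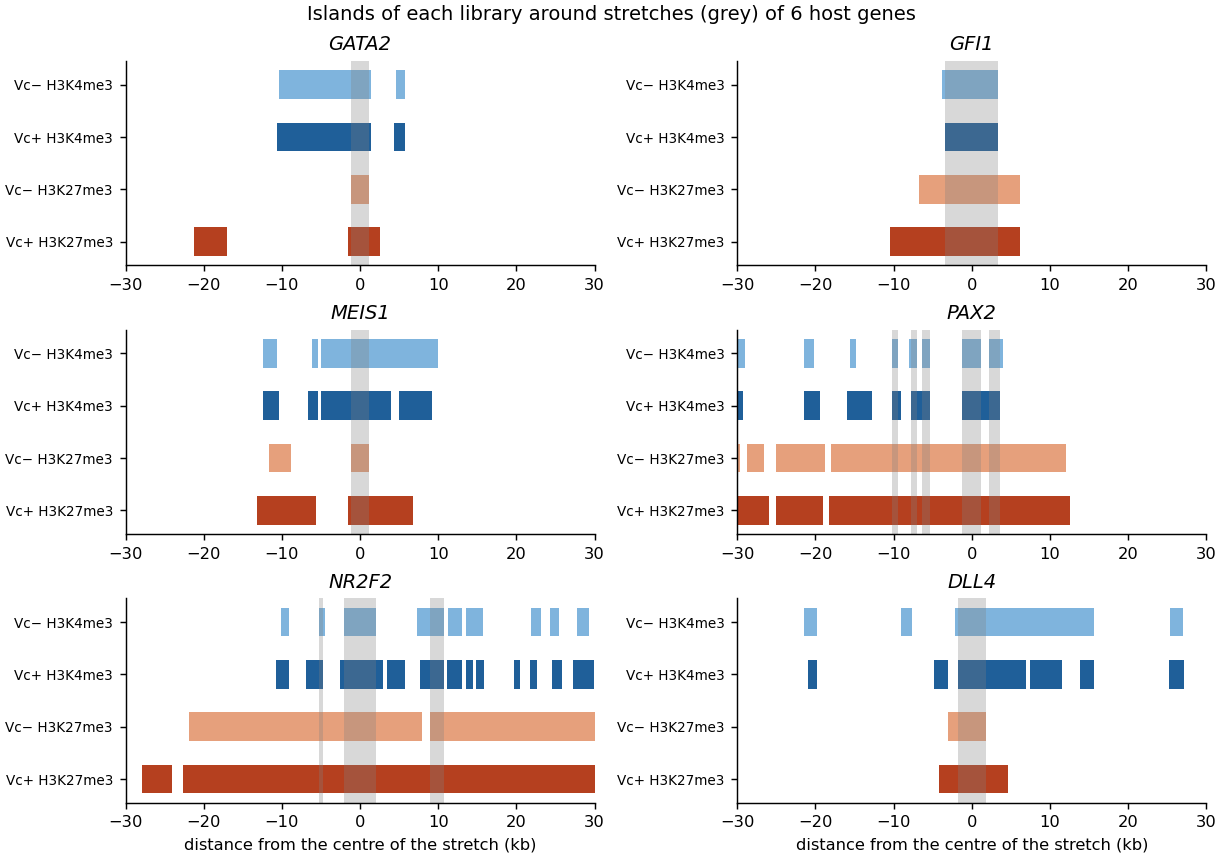
Islands of each library (rows) by distance in kb from the centre of a stretch at 6 host genes, cut at 30 kb to either side, with stretches in grey. In the Vc- libraries GATA2, MEIS1 and DLL4 show a small H3K27me3 island at a broad H3K4me3 island (2.4 kb in 11.8 kb at GATA2), and GFI1 and PAX2 show H3K4me3 islands within H3K27me3 islands.

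Taking all stretches, H3K27me3 was the broader mark. The islands that hold a stretch had median widths of 1.6 kb for H3K4me3 in the Vc- library and 1.8 kb in the Vc+ library, and of 5.0 and 6.0 kb for H3K27me3, counted once per stretch. The H3K27me3 island was wider than the H3K4me3 island at 89.9% of stretches in the Vc- libraries and at 92.8% in the Vc+ libraries, and in both at 2567 (86.9%). These shares are near the background, which was 89.5% and 91.8% of all overlapping pairs of an H3K4me3 and an H3K27me3 island. The H3K4me3 island lay wholly inside the H3K27me3 island at 72.1% and 78.2% of stretches, against 69.3% and 73.8% of all overlapping pairs. The islands were staggered, each reaching past the other, at 25.9% and 20%, against 28.6% and 23.6% of all overlapping pairs. The reverse nesting was found at 1.86% and 1.76%, against 1.63% and 2.29%. The arrangement was the same in both conditions at 2339 stretches (79.2%). An end of a stretch was thus mostly an end of H3K4me3, and 80.1% of lower-coordinate ends were set by H3K4me3 alone. A stretch took up a median of 85.7% and 71.4% of its H3K4me3 island, and 23.5% and 20% of its H3K27me3 island.

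The island lists were shared unequally. Islands with a stretch made up 13.4% and 13.2% of H3K4me3 islands and 29.0% and 26.5% of H3K27me3 islands. H3K27me3 islands with a stretch had a median of 4.6 kb against 2.8 kb without in the Vc- library, and 5.4 against 3.6 kb in the Vc+ library, while H3K4me3 islands were 1.6 kb with and without a stretch, and 1.8 kb with and without. The same islands form the stretches, so these widths are a description and no test was made of them.

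The width of H3K27me3 differed with the kind of host gene. Around stretches of the neural ectoderm list the median H3K27me3 island was 26.0 kb in the Vc- library and 23.6 kb in the Vc+ library. It was 30 and 30.8 kb around PAX genes, 23.6 and 21.6 kb around endoderm genes, 20.8 and 23.4 kb around mesoderm and cardiac genes, and 14.6 and 20.2 kb around forkhead genes. Over all stretches it was 5.0 and 6.0 kb. Around blood regulators it was 4.0 and 8.0 kb, around solute carriers 4.8 and 5.6 kb, around potassium channel genes 4.0 and 5.8 kb, around Frizzled genes 4.0 and 5.0 kb and around ZNF genes 3.5 and 4.5 kb. For H3K4me3 the same medians were 1.3 kb in the Vc- library and 2.2 kb in the Vc+ library for PAX genes, 1.4 and 2.2 kb for neural ectoderm genes, and 1.6 and 1.8 kb for all stretches. For blood regulators they were 7.2 and 4.6 kb, so these lists lay closer together in the Vc+ library. An island of at least 10 kb held 89.4% of the neural ectoderm stretches in the Vc- library and 18.8% of all stretches. H3K4me3 lay inside H3K27me3 in both conditions at 92.4% of neural ectoderm stretches, 65.5% of all and 46.2% of those of blood regulators. These medians rest on stretches that can share an island, such as the 5 of PAX2.

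H3K4me3 was the wider mark in both conditions at 101 stretches (3.42%). Those of the blood, endothelial and arterial lists made up 6 of the 101, and 28 of all 2954 stretches. Ranked by the H3K4me3 width in the Vc- library, they began with MEIS1 (15.0 kb), GATA2 (11.8 kb), GAD1 (11.2 kb), RUNX1 (10.2 kb, both stretches), HES7 (9.8 kb) and PDGFRA (8.8 kb). GAD1 makes GABA from glutamate, HES7 is a bHLH factor of the somite clock, and PDGFRA is a receptor of platelet-derived growth factor. THBD, thrombomodulin of the endothelial surface, had H3K4me3 islands of 7.0 and 7.2 kb and H3K27me3 islands of 2.2 and 3.0 kb. GAD1, HES7, PDGFRA and THBD were named after their values were seen.

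The HOX clusters, which encode the homeobox factors of the body axis, held 34 stretches at 27 of 39 genes. In the HOXA cluster on chromosome 7 all 11 genes were hosts, and its 13 stretches of 0.6 to 2.8 kb lay in 1 H3K27me3 island of 142.6 kb in the Vc- library and 142.0 kb in the Vc+ library. In the HOXD cluster on chromosome 2 hosts were 8 of 9 genes, all but HOXD12, and 10 stretches lay in 2 H3K27me3 islands of the Vc- library and in 1 of 132.4 kb in the Vc+ library. The HOXC cluster on chromosome 12 had 5 stretches at 4 of 9 genes, in an island of 152.8 and 218.6 kb. The HOXB cluster on chromosome 17 had 6 stretches at 4 of 10 genes, HOXB3, HOXB6, HOXB9 and HOXB13, spread over 4 H3K27me3 islands in each library, and its widest H3K4me3 island among the stretches was 7.6 kb in the Vc- library and 21.4 kb in the Vc+ library.

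Where the stretches lie around start sites is partly set by the rule, which keeps any stretch inside a gene and drops those over 1 kb outside it, so the downstream and upstream shares are a description. Of the 2243 stretches whose host genes had a start site in the table, 1254 (55.9%) covered a start, 426 (19.0%) lay within 1 kb of it, 457 (20.4%) lay over 1 kb downstream and 106 (4.73%) over 1 kb upstream. The other 711 had no start to be placed by. A stretch over a start reached a median of 452 bp upstream and 844 bp downstream, and 912 of the 1254 (72.7%) reached further downstream. Stretches over a start had a median length of 1.4 kb, those downstream 1.0 kb and those within 1 kb of a start 0.8 kb.

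Around the 1499 start sites that lay in a stretch, H3K27me3 spread further than H3K4me3 and both leaned downstream. At 2 kb upstream 61.4% of starts had an H3K27me3 island in the Vc- library, and at 2 kb downstream 74.0%. In the Vc+ library these were 70.0% and 79.8%. H3K4me3 had fallen to 7.34% and 11.3% at the same distances in the Vc- library, and to 8.61% and 14.1% in the Vc+ library. At the 11931 starts with H3K4me3 and no H3K27me3 within 1 kb, H3K4me3 leaned downstream too. Its shares there were 11.2% and 23.4% in the Vc- library, and 13.9% and 30.5% in the Vc+ library. At starts in a stretch the H3K4me3 island had a median width of 1.6 kb in the Vc- library and 1.8 kb in the Vc+ library. At starts with H3K4me3 and no H3K27me3 it was 2.4 and 2.6 kb, with quartiles of 1.8 and 3.2 kb in the Vc- library against 1.2 and 2.2 kb in the stretches. H3K4me3 islands over bivalent starts were therefore the narrower ones in both libraries, with overlapping ranges.

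**Figure D4:**
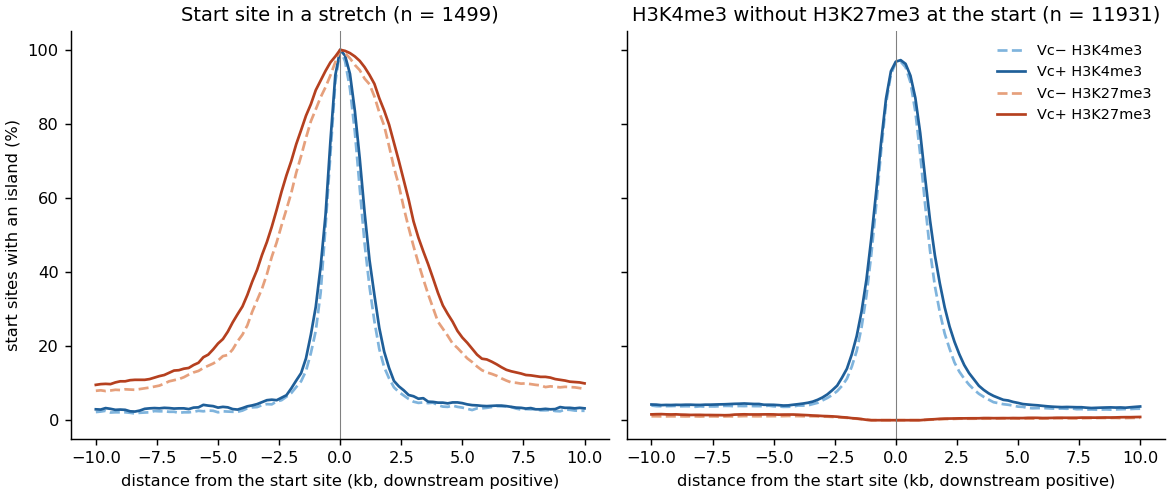
Percentage of start sites with an island of each library by distance in kb from the start, downstream positive, for the 1499 starts in a stretch (left) and the 11931 starts with H3K4me3 in both libraries and no H3K27me3 within 1 kb (right). On the left H3K27me3 still covers 74.0% of starts at 2 kb downstream in the Vc- library, where H3K4me3 covers 11.3%.

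Between the conditions, islands around the stretches were on the whole wider in the Vc+ library for both marks, at shares near those of all overlapping island pairs. The H3K27me3 island was wider there at 1918 stretches (64.9%, against 66.2% of all overlapping pairs of H3K27me3 islands). It was narrower at 889 (30.1%, against 29.5%) and equal at 147, with a median ratio of 1.12 (1.23 over all pairs). At least 1.5-fold wider were 733 (24.8%), against 36.7% of all 6756 overlapping pairs of H3K27me3 islands. At least 1.5-fold narrower were 174 (5.89%), against 11.1%. The H3K4me3 island was wider at 1650 stretches (55.9%, against 55.4% of all overlapping pairs of H3K4me3 islands). It was narrower at 764 and equal at 540, with a median ratio of 1.11 (1.1 over all pairs). At least 1.5-fold wider were 643 (21.8%, against 18.0% of all 19351 pairs), and narrower 156 (5.28%, against 6.7%). The whole lists differ in the same direction, with 51.1 Mb covered by H3K27me3 in the Vc+ library and 40.2 Mb in the Vc- library, and 46.8 and 42.0 Mb by H3K4me3. The part of depth in this was not tested, since the lists hold no read counts.

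The counts past 1.5-fold were also taken by gene list. Of the 66 stretches of neural ectoderm genes, 29 had an H3K4me3 island at least 1.5-fold wider in the Vc+ library and 5 a narrower one, beside the 643 and 156 of 2954, while for H3K27me3 there were 3 each. The list of homeobox, POU and ZIC factors gave 70 wider and 10 narrower H3K4me3 islands of 170, mesoderm and cardiac genes 24 and 1 of 54, and PAX genes 13 and 1 of 24. These lists overlap and their stretches can share an H3K4me3 island of the Vc+ library, as at PAX2. Blood regulators gave 0 wider and 3 narrower H3K4me3 islands of 13. In some other lists both marks had similar numbers of wider islands, with 7 for H3K27me3 and 7 for H3K4me3 of 23 stretches of T-box genes. The same counts were 6 and 6 of 17 for BMP and TGF-beta ligands with their antagonists, 7 and 5 of 19 for WNT ligands, and 11 and 9 of 34 for HOX genes. Further lists differed between the marks in either direction. Solute carriers gave 24 for H3K27me3 and 9 for H3K4me3 of 80 stretches, and ZNF genes 13 and 7 of 38. Forkhead genes gave 5 and 12 of 37, and the list of proneural bHLH factors 2 and 10 of 27.

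The direction of H3K4me3 was alike whichever way H3K27me3 went. Where the H3K27me3 island was wider in the Vc+ library the H3K4me3 island was wider too at 1047 of 1918 stretches (54.6%), and where it was narrower the H3K4me3 island was wider at 508 of 889 (57.1%). Measured as covered length within 5 kb of the centre, the H3K27me3 median was 5.3 kb in the Vc- library and 6.0 kb in the Vc+ library, and the H3K4me3 median 1.85 and 2.2 kb.

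At a minority of the stretches past 1.5-fold, the wider island took in 2 or more islands of the other library. Of the 733 stretches with H3K27me3 at least 1.5-fold wider in the Vc+ library, 245 (33.4%) had an island there that took in 2 or more islands of the other library, and 474 (64.7%) also gained 1.5-fold in covered length within 5 kb. B3GNT9, a glycosyltransferase gene, had H3K27me3 islands of 1.6 and 20.8 kb, while the covered length was 4.9 and 5.9 kb. WNT6, a WNT ligand, had islands of 7.0 and 47.0 kb and a covered length of 8.3 and 7.7 kb. PRDM8, a zinc finger factor of the nervous system, had islands of 4.2 and 26.8 kb and a covered length of 7.6 and 10.0 kb. Islands at ANKRD33B (1.0 and 6.4 kb) and DUSP15 (1.6 and 10.2 kb) grew in covered length as well, from 2.8 to 6.4 kb and from 1.6 to 7.7 kb. The remaining stretch of this group, at LOC124900646 and IDUA, had islands of 2.0 and 15.0 kb.

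Narrower H3K27me3 islands in the Vc+ library were found at EYA1, a transcriptional cofactor of ear and kidney, which had islands of 17.2 and 2.6 kb and lost covered length, from 8.4 to 5.2 kb. CELF2, an RNA-binding protein gene, had 7.8 and 2.2 kb and also lost, from 7.8 to 4.7 kb. GRIK2, a kainate receptor subunit, had 11.0 and 2.2 kb, ZEB1, a repressor of epithelial genes, 5.8 and 1.6 kb, and TTC34 5.6 and 1.4 kb, and at these 3 the covered length was larger in the Vc+ library. Of the 11 H3K27me3 cases described, WNT6, GRIK2, ZEB1 and TTC34 thus differed in opposite directions by the 2 measures. This was uncommon over all stretches, where covered length went the same way at 683 of the 733 wider (93.2%) and 157 of the 174 narrower (90.2%).

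For H3K4me3 the widest gains were at VAX1, a homeobox factor of the eye (1.0 and 9.4 kb), IRX3, an Iroquois factor (0.8 and 6.8 kb), DMRTA2 (0.4 and 3.0 kb), KIF1A, an axonal kinesin (0.4 and 3.0 kb), BMP7 (0.4 and 3.0 kb) and RNF220, a ubiquitin ligase (0.6 and 4.4 kb). Their covered length in the Vc- and Vc+ libraries was 4.1 and 5.5 kb at VAX1, 4.8 and 5.4 kb at IRX3, 2.2 and 3.0 kb at KIF1A, 2.6 and 3.0 kb at BMP7 and 3.8 and 4.4 kb at RNF220, and 5.6 kb in both at DMRTA2. Over all 643 stretches with H3K4me3 at least 1.5-fold wider, covered length went the same way at 609 (94.7%) and also passed 1.5-fold at 413 (64.2%). Losses were led by PLEKHH3 (6.6 and 0.6 kb), EN2, a homeobox factor of midbrain and cerebellum (3.8 and 0.6 kb), HLX, a homeobox factor of gut and blood (8.8 and 1.6 kb), CACNA1A, a calcium channel subunit (2.0 and 0.4 kb), ZNF703 (5.8 and 1.2 kb) and ALOXE3, a lipoxygenase of skin (9.8 and 2.4 kb). At PLEKHH3 the covered length was 8.1 and 8.0 kb, and at HLX 6.8 and 6.0 kb.

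**Figure D5:**
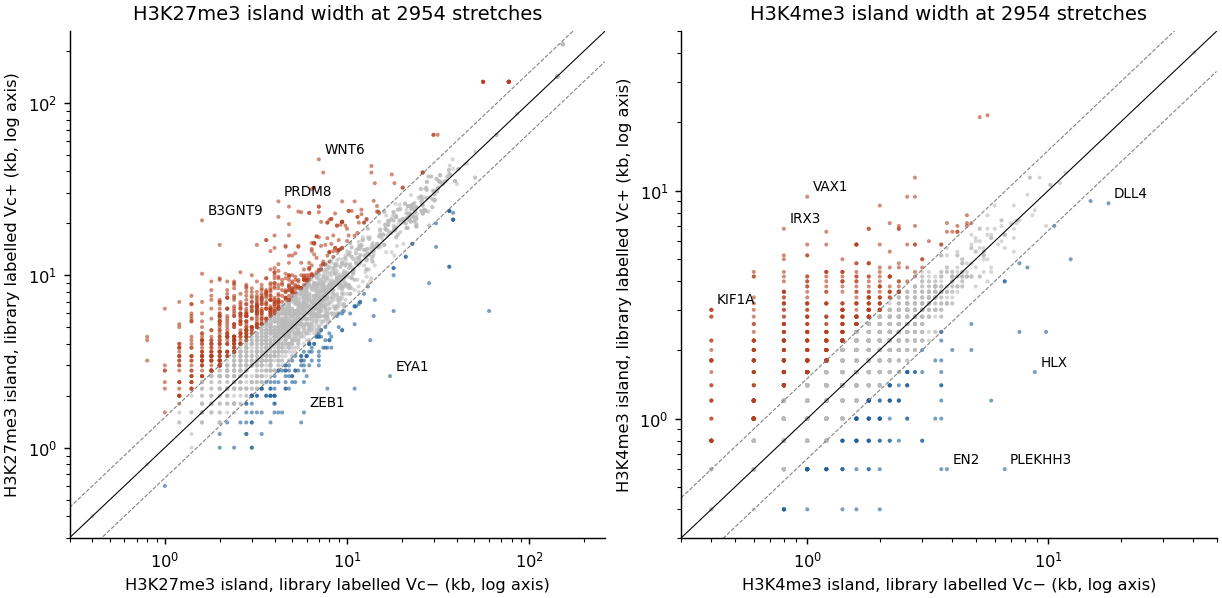
Width in kb of the island that holds each of 2954 stretches, Vc- library (x, log axis) against Vc+ library (y, log axis), for H3K27me3 (left) and H3K4me3 (right), with the line of equal width and dashed lines at 1.5-fold. Red points are at least 1.5-fold wider in the Vc+ library (733 and 643) and blue points at least 1.5-fold narrower (174 and 156).

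Stretches that missed the rule by 1 list were counted too. Of the stretches formed by the other 3 lists, 464 (13.4%) held no base of an H3K27me3 island of the Vc- library, and 201 (6.34%) none of the Vc+ library. For H3K4me3 these were 220 (6.99%) in the Vc- library and 99 (3.22%) in the Vc+ library. Intersecting the 2 lists of a condition alone gave 3313 stretches on 2931 genes for Vc- and 3650 on 3319 genes for Vc+. The 2637 host genes made up 90.0% of the former genes and 79.5% of the latter. A further 1062 stretches of at least 400 bp lay off protein-coding genes, with a median length of 1.0 kb, and 302 of them lay on a long non-coding RNA gene.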

How the data were processed

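Chromatin immunoprecipitation libraries of H3K4me3 and H3K27me3 were grouped by the mark and condition in their labels, 1 library per group. The tools named are SICER, Bowtie2 and deepTools, and the builds GRCh38 and hg38, per the submitters' processing notes, which give neither their roles nor versions. The antibody protocol names H3K27me3 alone, while the labels' antibody field names both marks. The deposited lists hold islands on a 200 bp grid with a score per island, which is the authors' value and was used only to filter or rank within a list. The smallest gap between islands was 400 bp for H3K4me3 and 800 bp for H3K27me3, which can set how islands join. Depth is not given in the sources used here.

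Deposited starts count from 0 and ends were taken as inclusive. Coordinates are counted from 1. Protein-coding gene spans, start sites, promoter windows and miRNAs came from RefSeq tables of GRCh38.p14. A gene can have several starts. No genome was used, so exons and introns are not told apart. Island width is that of the island holding the stretch, and covered length was summed over a 10 kb window centred on the stretch. With 1 library per group no test was made, and a fold of 1.5 was used to count changes.

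The stretches, gene lists and comparisons were chosen with earlier results of these data known. Named genes were the hosts of the 10 longest stretches, the 5 genes with most stretches, the 6 largest width folds per mark and direction outside the HOX clusters, all hosts in the blood, endothelial and arterial lists, up to 4 hosts of each other list, GATA2 and RUNX1, and 3 stretches at the minimum length. Some genes that this rule names are not reported here. Promoters were shown where the window lay wholly in a stretch and, a condition added after the data had been seen, the start is the 5′ end of the gene span. The motif set was also chosen then. Gene list members off the autosomes (GATA1, SOX3, KDM6A, UTY, HPRT1 and PGK1) were left out.

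The intersection gave the 4203 pieces that bedtools 2.31.1 gave, and 205 of 205 planted genes were recovered in a simulation over 19126 genes. Alternatives covered length, score, gene window, width measure and fold. Python 3.11.15, numpy 2.4.6, pandas 2.3.3, scipy 1.17.1 and matplotlib 3.10.9 were used.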

Additional observations from a re-analysis of the deposited data

How the results depend on the processing

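The number of stretches stayed between 1998 and 4016 and that of host genes between 1949 and 2937 over the other minimum lengths, score minimums, gene windows, list lengths, chromosome X and exclusive ends. A stretch within 1 kb of a known start was asked for in 1 alternative, and by that stricter condition 1680 stretches and 1636 genes remained. The share of H3K27me3 changes past the fold that were towards wider islands in the Vc+ library was 80.8%, and 87.6% at a fold of 2 and 75.2% at a lower fold. For H3K4me3 it was 80.5%, and 74.6% at the lower fold, 84.3% for covered length in 20 kb and 83.9% with the longer list cut to the covered length of the shorter. That cut drops whole islands of low score and leaves the widths of the others as they are, so it bears little on depth. H3K27me3 was the wider mark in both conditions at 86.9% of stretches, and at 89% with a score of at least 10. The share of promoter windows rich in GC and CpG was 84.5%, and 77.7% where the window only had to overlap a stretch. No direction was reversed in any of these. For shares, exact 95% binomial intervals set what counted as moved. They cover counting error only and treat stretches that share an island as independent. Numbers of stretches, genes and islands counted as moved past a 1.5-fold change, and named genes when they were lost or gained. Of the 21 host genes in the blood, endothelial and arterial lists, HOXA9 and ESAM were lost at a minimum of 1000 bp, ESAM with the longer lists cut to equal covered length, DLL4 without flanks, and 8 genes when a known start was asked for. The equal-length versions of the counts and of covered length were added after the data had been seen. No paired analysis was possible because each group has 1 library and no test was made. Read depth, replicate spread and signal under the calling threshold cannot be read from these lists.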
